A study of Mus musculus with 8 samples.

Results

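IAP, ETn, MMERVK and ERVB elements are mouse endogenous retroviruses, and their RNA was followed here in J1 mouse embryonic stem (ES) cells in which Zscan4 was knocked down or overexpressed. The members were chosen by name alone, as every deposited repeat name that starts with IAP, ETn, MMETn, RLTRETN, MMERVK or ERVB. They came to 50 of the 838 repeat names found in either of the deposited repeat tables, 48 of 767 in the knockdown table and 49 of 834 in the overexpression table, with 47 in both. The knockdown table held 22 IAP, 5 ETn, 5 MMERVK and 16 ERVB names, and the overexpression table held 17 ERVB names and the same number of each other family. By their names, 23 members in each table were internal regions, and 25 and 26 were long terminal repeats (LTRs).

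These elements are class II retroviruses of the mouse genome. A full-length copy has an LTR at each end, which holds the promoter and the polyadenylation signal, around an internal region that in coding copies carries gag, pro and pol. ETn elements, the early transposons, are transcribed in early embryos and ES cells and lack coding capacity of their own, and related coding copies (MusD, which repeat annotations list under ETnERV) supply the proteins that mobilise them. IAP elements, the intracisternal A particles, include many young copies and remain among the most mobile elements of the mouse. In ES cells, KRAB zinc finger proteins bind such elements and recruit TRIM28 and the histone methyltransferase SETDB1, and DNA methylation adds a further layer of repression. Zscan4 encodes a zinc finger protein of the 2-cell embryo, and is transcribed in rare ES cells that also express MERVL, a class III retrovirus.

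The 8 libraries formed 4 groups of 2, all of the cell line J1, with the strain written 12910la in the labels. KD control cells (genotype label wild type) received pSuper puro with a random control, and KD Zscan4 cells (Zscan4 knocked down) received pSuper puro with a short hairpin RNA against Zscan4. OE control cells (wild type) received the pCMV-tag2 control, and OE Zscan4 cells (Zscan4c overexpressed) received pCMV-tag2 with the Zscan4c coding sequence. Transfection used 1000 ng of plasmid, and after 24 h cells were selected with puromycin at 2 µg/ml for 7 days (KD) or G418 at 500 µg/ml for 10 days (OE), with 15% serum and 10 ng/ml LIF in the medium throughout. Monoclonal cells were picked after selection, and the labels do not say whether the libraries of a group came from separate clones or cultures. Each p-value thus reflects a spread between libraries that may be technical, and limma estimates that spread in part from all names or genes together. In this design a difference between picked clones cannot be told apart from an effect of Zscan4.

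Gene reads came to 17392177 to 22381633 per library, and normalised values over all repeat names summed to 313826 to 441307. Zscan4 transcripts followed the labels: the summed normalised value of 6 Zscan4 genes was 2740 and 2539 in KD control and 80.2 and 115 in KD Zscan4, and 257 and 305 in OE control and 4276 and 3814 in OE Zscan4. All 8 ES cell markers were measured in every library, with sums of 123678 to 131743 in the KD arm, and of 111785 to 114989 in OE control against 151012 to 152045 in OE Zscan4, where 7 of the 8 were higher. The 10 primitive endoderm markers all fell in KD Zscan4, from sums of 10458 to 10768 to sums of 1773 to 1995, with Foxa2 at 0 in 1 KD Zscan4 library, and 7 of 9 measured fell in OE Zscan4, from 2503 to 2622 to 1652 to 1698. The 2-cell-like markers fell in KD Zscan4 in 8 of 8 cases, from sums of 1964 to 2122 to 85.2 to 120, with Zfp352 and Duxf3 at 0 in 1 KD Zscan4 library. They rose in OE Zscan4 in 6 of 7, from 219 to 243 to 3030 to 3333. Trophectoderm markers were higher in 1 and lower in 3 of 7 (KD) and lower in 2 of 6 (OE). Fibroblast markers were higher in 1 and lower in 1 of 6 in KD Zscan4 and lower in 3 of 5 in OE Zscan4, from 575 to 626 to 309 to 322. Beside these marker counts, 17.2% of all genes rose and 18.5% fell in KD Zscan4, and 22.3% rose and 22.1% fell in OE Zscan4. The part of the marker shifts in the results on retroviruses was not tested. In bulk RNA, fewer cells of a type and less RNA per cell cannot be told apart.

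Each value below is a normalised read value summed over all genomic copies of a repeat name, so a change cannot be assigned to particular copies, and how reads that map to several copies were counted is not given in the sources used here. Effects are log2 fold changes, Zscan4 group minus control, on the log2(value + 1) scale. A name counts as changed when limma's Benjamini-Hochberg adjusted p over the whole table was under 0.05. The tables of the KD and OE arms were normalised separately, so levels are compared only within an arm.

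In KD Zscan4, 10 of the 48 members fell (20.8%) and 1 rose (2.08%), where 2.87% of all 767 repeat names fell and 6% rose. In OE Zscan4, 4 of the 49 members rose (8.16%) and 3 fell (6.12%), where 2.52% of all 834 names rose and 1.32% fell. The median member stood at 0.076 in the KD arm beside 0.26 for all names, and at 0.20 in the OE arm beside -0.0078. The KD median of all names depended on the scaling: with TMM factors over repeat names it was 0.010, the median member was -0.17, and 10 members fell and 0 rose by limma, with 16 members at an unadjusted p under 0.05. In limma without a trend of variance on level, 0 KD members passed, with 13 at an unadjusted p under 0.05, and 2 OE members rose and 2 fell. No filter on low values was applied here, so every member was tested, but 18 KD members and 17 OE members had a mean under 20 normalised reads. Among all members, the groups did not overlap for 15 higher and 16 lower names in the KD arm (background 48.2% and 10% of names) and for 20 higher and 11 lower names in the OE arm (background 20% and 17.4%).

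**Figure D1:**
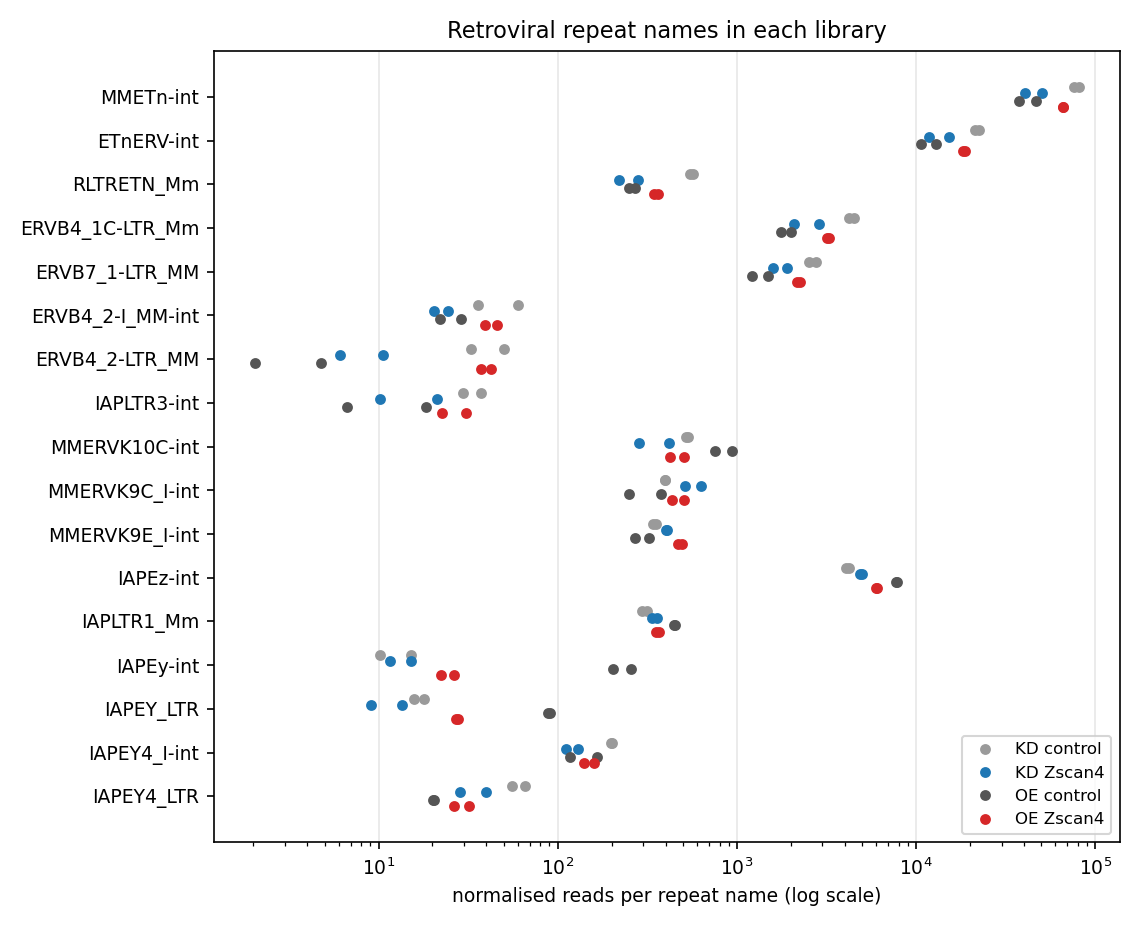
Normalised read values (log axis) of selected members in each of the 8 libraries, with a point per library. MMETn-int lies at 40771 to 50597 in KD Zscan4 against 76379 and above in KD control, while IAPEz-int moves little in that arm.

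ETn elements made up most of the members' RNA and fell in the knockdown. MMETn-int, the internal region of the MMETn group of early transposons, stood at 80741 and 76379 in KD control and at 40771 and 50597 in KD Zscan4. Both knockdown libraries were below both controls, and the effect was -0.79 (SE 0.12, limma adjusted p = 2.8e-05). ETnERV-int, the internal region annotated for the coding relatives of ETn, went from 22481 and 21245 to 11849.9 and 15284 (-0.70, SE 0.11, limma adjusted p = 1.6e-04). The groups again did not overlap. The calls of MMETn-int and ETnERV-int were lost without KD control replicate 1 (-0.75 and -0.66, adjusted p = 0.117 and 0.110) or replicate 2 (-0.83 and -0.74, adjusted p = 0.157 and 0.132).

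RLTRETN_Mm, the only LTR name placed in the ETn family here, fell further, from 572.5 and 549.96 to 221 and 280.4 (-1.17, SE 0.14, limma adjusted p = 1.2e-06). It was called whichever KD library was left out. ETnERV2-int (62.8 and 54.1 against 52.7 and 61.9, -0.029) and ETnERV3-int (52.9 and 24.8 against 36.5 and 39.6, 0.065) were at far lower levels and their groups overlapped. Of the 5 ETn names, 3 therefore fell and 2 did not pass.

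In the overexpression arm the abundant ETn names were higher in both Zscan4 libraries, but none passed the test. MMETn-int stood at 37413 and 47002 in OE control and at 66273 and 65744 in OE Zscan4, an effect of 0.65 with an SE of 0.23 (limma adjusted p = 0.0939). ETnERV-int stood at 10690.5 and 12926 against 18392 and 18738 (0.66, adjusted p = 0.0621), and RLTRETN_Mm at 249 and 269.8 against 345 and 361 (0.44, adjusted p = 0.384). The groups did not overlap for any of these 3 names. Among names with a mean of at least 10, ETnERV-int passed (limma adjusted p = 0.0435). With 1 OE library left out, effects were 0.49 to 0.82 (MMETn-int), 0.52 to 0.80 (ETnERV-int) and 0.39 to 0.50 (RLTRETN_Mm). The OE control libraries lay further apart than the OE Zscan4 libraries, with sums over all repeat names of 346495 and 436589 against 437749 and 441307. With TMM factors over repeat names, which rescale each library, the fold changes of MMETn-int, ETnERV-int and RLTRETN_Mm were 0.67, 0.68 and 0.46. All 3 then passed (limma adjusted p = 2.5e-17, 4.4e-14 and 0.0044). The effects hardly moved, and limma estimates the variance in part from all names. Such p-values therefore do not measure the spread of these libraries alone. ETnERV3-int, at 24.9 and 43.1 against 54.3 and 66.6 (0.85, adjusted p = 0.0939), passed only with the rescaled values (0.0189) or without OE control replicate 2, while ETnERV2-int was at 99.6 and 120.02 against 97.9 and 89.1 (-0.23).

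As shares, which do not depend on the scaling, ETn names held 29.1% and 28.6% of all repeat values in KD control and 16.9% and 18.5% in KD Zscan4. In the overexpression arm they held 14.0% and 13.8% in control and 19.5% and 19.3% in Zscan4 libraries. MMETn-int alone held 22.6% and 22.2% against 13.0% and 14.1% (KD), and 10.8% and 10.8% against 15.1% and 14.9% (OE). All members together held 33.1% and 32.5% against 20.4% and 22.1% (KD), and 18.0% and 17.4% against 22.8% and 22.6% (OE). Most of the shift in the share of the whole set was that of MMETn-int in both arms. The other 3 families each held under 3% in every library. No test was made of these sums, since the members were chosen with results of these data known.

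**Figure D2:**
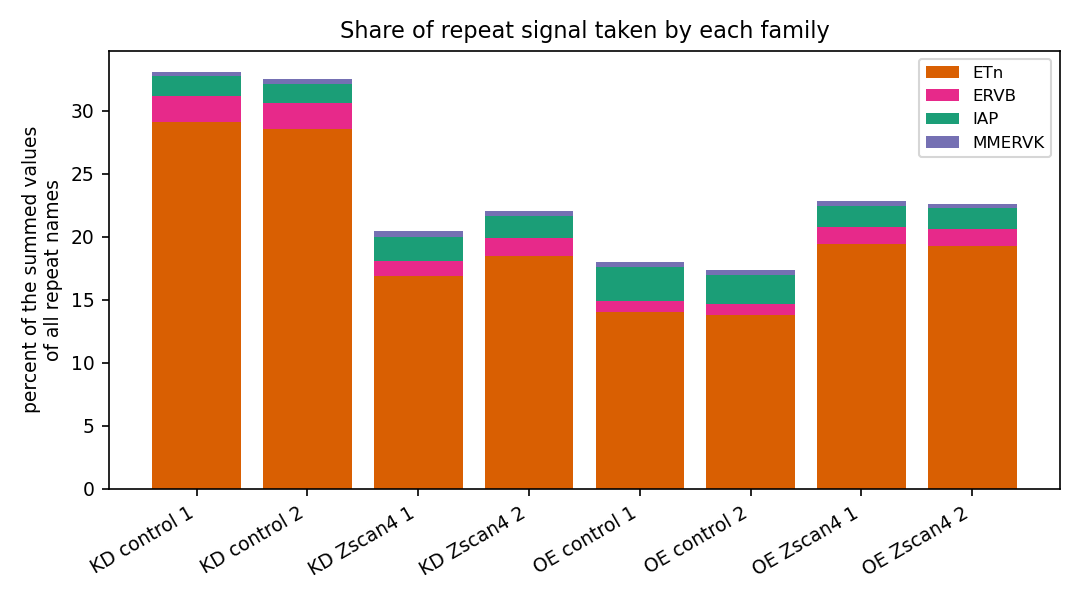
Percent of all normalised repeat values held by each of the 4 families in each library. ETn holds 28.6% to 29.1% in KD control and 16.9% to 18.5% in KD Zscan4, and the IAP, MMERVK and ERVB shares stay under 3%.

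ERVB names, a set of betaretrovirus-like elements, held few reads except for 2 LTRs, and both of these fell in KD Zscan4 and rose in OE Zscan4. ERVB4_1C-LTR_Mm stood at 4530.1 and 4225 in KD control and at 2095 and 2878 in KD Zscan4 (-0.83, SE 0.12, limma adjusted p = 2.8e-05). It went in the OE arm from 1768 and 2008 to 3179 and 3265 (0.77, SE 0.21, limma adjusted p = 0.0078). ERVB7_1-LTR_MM went from 2779 and 2514 to 1586 and 1911 in the KD arm (-0.60, SE 0.11, adjusted p = 0.0011) and from 1218 and 1483 to 2171 and 2265 in the OE arm (0.72, SE 0.21, adjusted p = 0.0168). For both names the groups did not overlap in either arm. The OE calls of both names were lost without either OE Zscan4 library (adjusted p = 0.996 or 0.997, with fold changes of 0.69 to 0.79), and the KD call of ERVB7_1-LTR_MM without either KD control library (0.137 and 0.0911).

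These 2 LTR names tracked the ETn internal regions from library to library. The ratio of MMETn-int to ERVB7_1-LTR_MM within a library was 25.7 to 31.7 over the 8 libraries, and that of MMETn-int to ERVB4_1C-LTR_Mm 17.6 to 23.4. Between MMETn-int and ETnERV-int the ratio was 3.31 to 3.64. By contrast, the ratio of MMETn-int to IAPEz-int, the main IAP internal region, ran from 4.86 to 19.2. Values are not divided by length, so a ratio says nothing of relative abundance, and only its spread between libraries is read here. Reads shared between similar LTRs could be counted under either name. Families were set by name alone, and whether these 2 LTRs flank the ETn internal regions was not tested. Their changes may therefore not be separate from those of the ETn names.

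ERVB4_2-LTR_MM, an LTR with few reads, changed most among the ERVB names. It held 50.3 and 32.7 normalised reads in KD control and 6.08 and 10.6 in KD Zscan4 (-2.19, SE 0.40, limma adjusted p = 5.9e-04). It rose in OE Zscan4 from 4.79 and 2.05 to 37.2 and 42.2 (3.27, SE 0.51, adjusted p = 2.2e-08). Low counts make these fold changes imprecise, but both calls held whichever library was left out. Its internal region, ERVB4_2-I_MM-int, went from 60.1 and 36.1 to 24.3 and 20.3 in the KD arm (-1.04, SE 0.31, adjusted p = 0.0374) and stood at 22.0 and 28.7 against 45.7 and 39.4 in the OE arm (0.73, adjusted p = 0.300). The KD call of the internal region was lost without KD control replicate 1 (-0.67, adjusted p = 0.343) or KD Zscan4 replicate 2 (-0.91, 0.131).

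In all, 12 of 16 ERVB names in the KD arm and 14 of 17 in the OE arm did not pass. Those were low, with at most 61.6 normalised reads in a library. ERVB2_1A-I_MM-int was at 26.9 and 23.7 against 38.5 and 30.9 in the KD arm (0.44, adjusted p = 0.347) and at 29.7 and 61.6 against 26.6 and 41.3 in the OE arm (-0.36). ERVB7_2-LTR_MM was at 28.7 and 27.0 against 34.5 and 28.0 (0.15), and at 44.1 and 53.3 against 55.3 and 46.9 (0.070). ERVB4_1B-I_MM-int was at 17.0 and 27.0 against 14.2 and 30.0 (-0.053) and at 14.4 and 17.4 against 27.7 and 30.02 (0.82, adjusted p = 0.356). The groups of ERVB2_1A-I_MM-int overlapped in the OE arm, those of ERVB4_1B-I_MM-int in the KD arm and those of ERVB7_2-LTR_MM in both.

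MMERVK names, class II elements related to IAP, did not move as a block. MMERVK10C-int, the internal region of the best known of these groups, fell in both arms. It stood at 530.4 and 519.5 against 286 and 419 in the KD arm (-0.60, SE 0.15, limma adjusted p = 0.0135) and at 758 and 939 against 507 and 421 in the OE arm (-0.87, SE 0.21, adjusted p = 0.0027). MMERVK9C_I-int rose in KD Zscan4, from 398 and 397 to 515 and 628 (0.52, SE 0.13, adjusted p = 0.0155). Its OE values were 250.02 and 376 against 509.6 and 433 (0.61, adjusted p = 0.104), and this passed with TMM factors over repeat names (0.63, adjusted p = 2.8e-04), under which the KD rise did not (0.26, 0.175).

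MMERVK9E_I-int rose in OE Zscan4, from 270.1 and 325 to 491.5 and 468 (0.69, SE 0.22, adjusted p = 0.0468), a call lost with the factors of the gene table (0.0657). It was at 339 and 352 against 409 and 400.3 in the KD arm (0.23, adjusted p = 0.251, and -0.026 with TMM factors). Neither MMERVK10D3_I-int (-0.19 and -0.088) nor MMERVK10D3_LTR, which held 5.80 to 16.2 reads, passed in either arm. The calls of MMERVK10C-int and MMERVK9C_I-int in the KD arm were lost without either KD control library (adjusted p = 0.109 to 0.250), and those of MMERVK10C-int and MMERVK9E_I-int in the OE arm without either OE Zscan4 library (0.996 or 0.997). Within a library, where the scaling cancels, the ratio of MMERVK9C_I-int to MMERVK10C-int was 0.75 and 0.764 in KD control and 1.8 and 1.5 in KD Zscan4. It was 0.330 and 0.401 in OE control and 1.00 and 1.03 in OE Zscan4. The ratio was thus higher in both libraries of each Zscan4 group than in their controls. With 2 against 2 libraries an exact permutation test cannot give a two-sided p under 0.333, so no test was made of this ratio.

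IAP names, the largest family here, had 2 of 22 names that fell in each arm (9.09%, beside 2.87% of all names in the KD arm and 1.32% in the OE arm), and 0 that rose by limma in either. IAPEz-int, the internal region that held most IAP reads, stood at 4212 and 4082 in KD control and at 4890.2 and 4987 in KD Zscan4. Both knockdown libraries were higher, but the fold change of 0.25 did not pass (SE 0.10, limma adjusted p = 0.107), lay beside a median of 0.26 for all repeat names, and was -0.0035 with TMM factors over repeat names. Values of IAPEz-int in the OE arm were 7694 and 7867 against 6036 and 5999 (-0.37, adjusted p = 0.512), and with TMM factors the same fall passed (-0.35, adjusted p = 2.4e-04). With 1 OE library left out, the effect of IAPEz-int was -0.39 to -0.35. Its share of repeat values was 1.18% and 1.19% against 1.56% and 1.39% (KD), and 2.22% and 1.80% against 1.38% and 1.36% (OE). Shares of a whole are not independent: the fall of the ETn share in KD Zscan4 by itself raises the share of every other name, so no change of IAPEz-int is read from these shares. The KD fold change passed when either KD Zscan4 library was left out (0.27 without replicate 1 and 0.24 without replicate 2, adjusted p = 0.0059 and 0.0242).

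IAPLTR1_Mm, an LTR of young IAP copies, went along with IAPEz-int. It stood at 315 and 296 against 336.5 and 358 in the KD arm (0.18, adjusted p = 0.388) and at 448 and 452 against 355 and 369 in the OE arm (-0.31, adjusted p = 0.681). The ratio of IAPEz-int to IAPLTR1_Mm was 13.4 and 13.8 against 14.5 and 13.9 in the KD arm and 17.2 and 17.4 against 17.0 and 16.3 in the OE arm. IAPLTR2_Mm was at 96.0 and 90.2 against 97.3 and 113 in the KD arm (0.17) and at 82.4 and 129 against 96.8 and 102 in the OE arm (-0.052). IAPLTR2a (26.0 and 30.4 against 34.5 and 38.7, 0.36) and IAPLTR2b (48.5 and 42.8 against 35.5 and 66.7, 0.094) did not pass in the KD arm. IAP-d-int was at 120.3 and 118 against 112 and 167 (0.20) and at 183 and 216 against 184 and 164 (-0.19). IAPLTR3-int stood at 29.6 and 37.2 against 10.1 and 21.3 in the KD arm (-1.12, adjusted p = 0.0524) and at 6.71 and 18.5 against 30.9 and 22.5 in the OE arm (1.16, adjusted p = 0.110). Its KD fall passed with pseudocount 5 (0.0468), in names with a mean of at least 10 (0.0374), with median of ratios (0.0495) or gene table factors (0.0491), and without KD Zscan4 replicate 2 (0.0242), and its OE rise without OE control replicate 2 (0.0012).

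With the deposited factors and all libraries, the IAP names that fell were of the IAPEY groups, IAP elements first described on the Y chromosome. Most IAPEY names did not pass: 2 of 8 fell in the KD arm and 2 of 9 in the OE arm, with medians of -0.32 and 0.081. IAPEY5_LTR, with few reads and only in the OE arm, was higher in OE Zscan4 (1.92 and 1.03 against 9.58 and 7.51) but did not pass. IAPEy-int fell in the OE arm from 204 and 255 to 22.3 and 26.3 (-3.18, SE 0.27, limma adjusted p = 2.1e-28), and IAPEY_LTR from 90.0 and 88.2 to 27.7 and 27.2 (-1.66, SE 0.29, adjusted p = 1.5e-06). In the KD arm IAPEy-int held only 15.3 and 10.1 against 15.2 and 11.6 (0.086), and IAPEY_LTR 17.9 and 15.8 against 9.12 and 13.5 (-0.56, adjusted p = 0.412). There the falls were those of IAPEY4_I-int, from 202 and 199 to 111 and 129.6 (-0.73, SE 0.17, adjusted p = 0.0065), and IAPEY4_LTR, from 55.6 and 65.4 to 28.4 and 39.6 (-0.83, SE 0.26, adjusted p = 0.0468). OE libraries had IAPEY4_I-int at 118 and 166 against 139 and 159 (0.091) and IAPEY4_LTR at 20.1 and 20.5 against 31.9 and 26.3 (0.49). The KD calls of both IAPEY4 names were lost without either KD control library (adjusted p = 0.0775 to 0.345), and that of IAPEY4_LTR also without KD Zscan4 replicate 1 (0.126).

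Transcripts of Y-linked genes moved in the same libraries. The sum of Ddx3y, Uty and Eif2s3y was 1533 and 1602 in OE control and 10.6 and 18.8 in OE Zscan4, and 1312 and 1167 in KD control against 488 and 585 in KD Zscan4. The KD fall was uneven: group means went from 408 to 6.38 for Ddx3y (-5.96), 192 to 34.7 for Uty (-2.43) and 640 to 496 for Eif2s3y (-0.37). In the OE arm their effects were -6.08, -6.02 and -7.10. The part of this in the IAPEY falls was not tested. Gene medians of other chromosomes also stood apart, at 0.54 for chromosome 1 and 0.31 for chromosome M (29 genes) in the KD arm, and -0.33 for chromosome 11 in the OE arm. Their part in the results was not tested either.

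Internal regions and LTRs of a family were compared by the ratio of their summed values within a library, which does not depend on the scaling. Families follow the names, so an internal region may be set here against LTRs of other elements. For ETn the ratio was 180.5 and 178 in KD control and 239 and 235 in KD Zscan4, since RLTRETN_Mm fell by more than MMETn-int and ETnERV-int. In the OE arm the ETn ratio was 194 and 223 in control and 246 and 234 in Zscan4 libraries, so it was higher in the Zscan4 group of both arms, by 0.40 and 0.21 on the log2 scale. With medians over names in place of sums these were 0.81 and -0.23, so the OE direction holds for the sums, which MMETn-int dominates, and turns for the median. The ETn LTR sum was 1 name, RLTRETN_Mm, so the direction also rests on that LTR. Against ERVB7_1-LTR_MM the log2 ratio of MMETn-int changed by -0.19 (KD) and -0.067 (OE). Against ERVB4_1C-LTR_Mm it changed by 0.043 (KD) and -0.12 (OE). For IAP the ratio was 6.93 and 6.92 against 7.66 and 7.04 (KD), and 9.46 and 8.67 against 8.18 and 7.99 (OE). For ERVB it was 0.0191 and 0.0169 against 0.0315 and 0.0262 (KD), and 0.0345 and 0.0432 against 0.0265 and 0.0312 (OE). The ERVB LTR sum was carried by ERVB4_1C-LTR_Mm and ERVB7_1-LTR_MM, so that ratio mainly followed those 2 names. The MMERVK ratio rested on 1 LTR name of few reads and overlapped between the KD groups.

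Over the separate names, 5 of 23 internal regions (21.7%) and 5 of 25 LTRs (20%) fell in the KD arm, beside 2.87% of all names, with medians of -0.053 and 0.17. In the OE arm 1 of 23 internal regions and 3 of 26 LTRs rose (4.35% and 11.5%, beside 2.52% of all names), while 2 and 1 fell (8.7% and 3.85%, beside 1.32%), with medians of 0.091 and 0.25. For 2 pairs named for the same element the ratio moved between groups. The ratio of ERVB4_2-I_MM-int to ERVB4_2-LTR_MM was 1.20 and 1.10 against 4 and 1.91 (KD), and 4.60 and 14.0 against 1.23 and 0.933 (OE). For IAPEy-int and IAPEY_LTR in the OE arm it was 2.27 and 2.90 in control and 0.808 and 0.966 in Zscan4 libraries, and in the KD arm, at few reads, 0.85 and 0.643 against 1.67 and 0.857. For the comparison pair of class III elements, the ratio of MERVL-int to its LTR MT2_Mm was 4.51 and 4.02 against 3.06 and 3.22 (KD), and 2.66 and 2.59 against 4.47 and 4.10 (OE). The MERVL ratio was therefore lower in KD Zscan4 and higher in OE Zscan4, while the ETn ratio of sums, over RLTRETN_Mm alone, was higher in both. The ratio of MMETn-int to ERVB7_1-LTR_MM was instead lower in both (-0.19 and -0.067), so the ETn side of this contrast depends on the LTR name used.

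**Figure D3:**
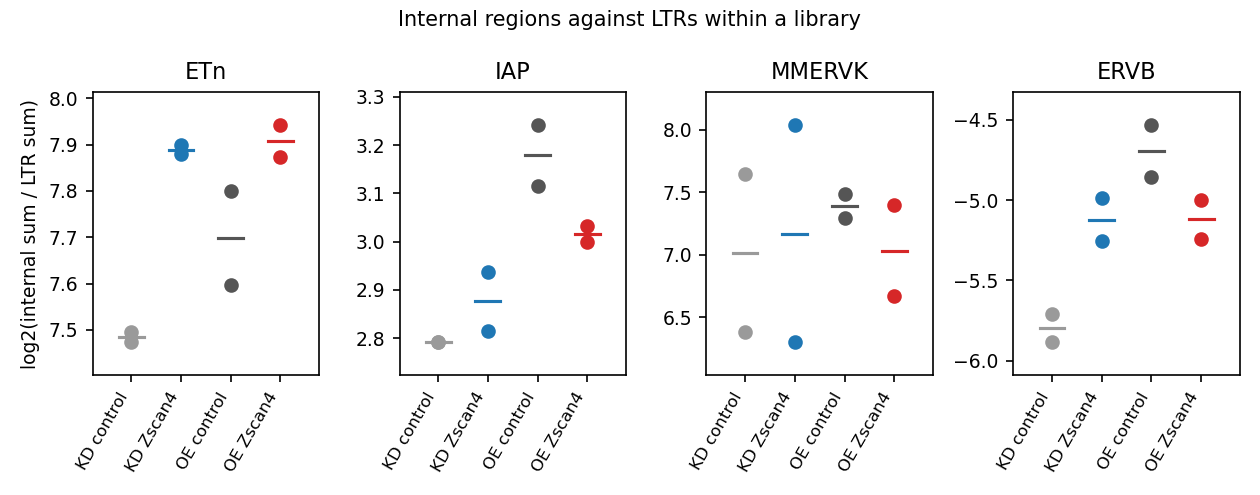
Log2 ratio of summed internal to summed LTR values in each library, by family as set by name alone, with a point per library. The ETn points, whose LTR sum is RLTRETN_Mm alone, lie higher in the Zscan4 group of both arms (with medians over names the OE difference is -0.23). The ERVB points are higher in KD Zscan4 and lower in OE Zscan4.

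Whether the overexpression effect differed from the knockdown effect was tested in 1 limma fit over the 763 names of both tables. The difference (OE effect minus KD effect) was higher for 8 of 47 members (17%) and lower for 1 (2.13%), where 3.54% of the 763 names were higher and 4.19% lower. The median difference was 0.096 for members and -0.27 for all names, and these were 0.37 and -0.00059 with TMM factors, under which 11 members were higher and 2 lower. MMETn-int differed by 1.44 (SE 0.24, adjusted p = 6.0e-08), ETnERV-int by 1.36 (SE 0.22, adjusted p = 6.0e-08) and RLTRETN_Mm by 1.61 (SE 0.26, adjusted p = 2.0e-08). ERVB4_1C-LTR_Mm differed by 1.61 (SE 0.22), ERVB7_1-LTR_MM by 1.32 (SE 0.22), ERVB4_2-LTR_MM by 5.47 (SE 0.66) and ERVB4_2-I_MM-int by 1.77 (SE 0.47), and the last of these was lost without KD control replicate 1 or OE Zscan4 replicate 1. IAPLTR3-int differed by 2.28 (SE 0.58, adjusted p = 0.0022), a call lost without KD Zscan4 replicate 1, OE control replicate 1 or OE Zscan4 replicate 1. In limma without a trend, 5 of these 8 differences did not pass: MMETn-int (0.0537), ETnERV-int (0.0587), ERVB7_1-LTR_MM (0.0587), ERVB4_2-I_MM-int (0.0668) and IAPLTR3-int (0.145).

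The member with the opposite sign was IAPEy-int, whose difference was -3.27 (SE 0.47, adjusted p = 5.3e-10). By sign alone, 15 of 47 members were lower in KD Zscan4 and higher in OE Zscan4, 10 the reverse, 14 higher in both and 8 lower in both. In ERVB 7 of 16 had the first pattern and 2 the reverse, while in IAP it was 4 and 8 of 21, and in ETn 3 and 0 of 5. The same counts were not made over all repeat names, and KD signs depend on the scaling. The KD median of all names was 0.26, and 0.010 with TMM factors. With those factors the KD signs of IAPEz-int, IAP-d-int, IAPLTR1_Mm, IAPLTR2_Mm, IAPLTR2b and IAPEy-int turned negative, so no family pattern is read from these counts. For scale, MERVL-int stood at 5599 and 5211 against 1032 and 1378 in the KD arm (-2.18) and at 804 and 891 against 7862 and 7256 in the OE arm (3.16). ERVB4_2-LTR_MM had effects of that size at far lower reads, while those of the ETn names were smaller.

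**Figure D4:**
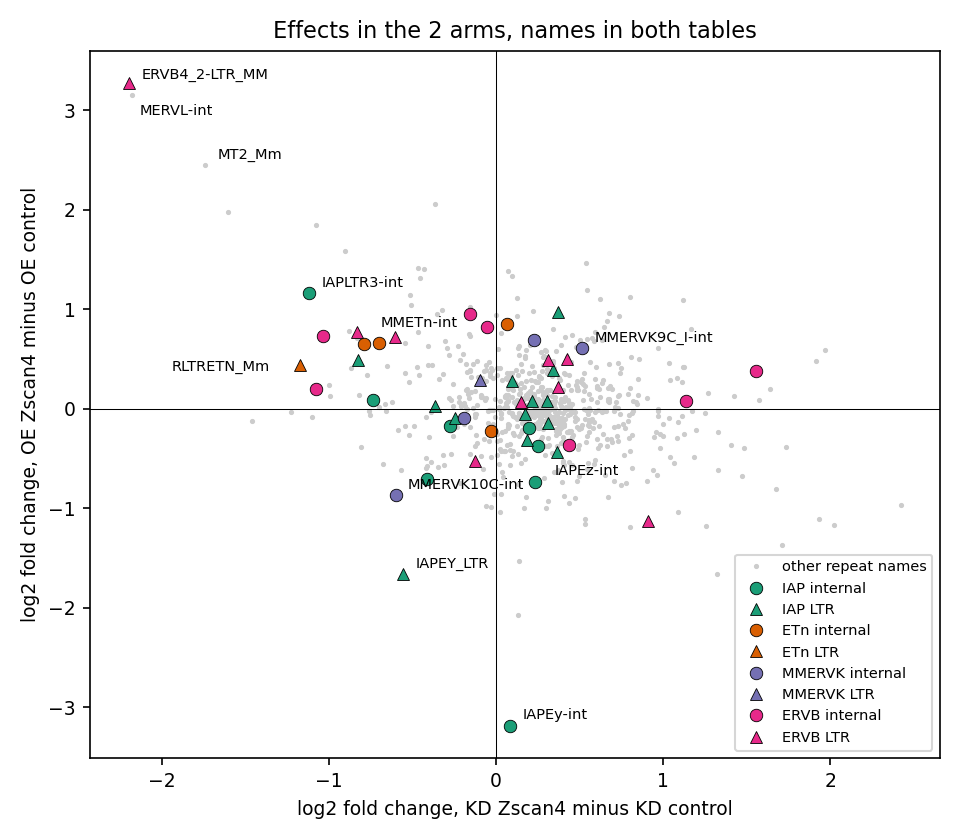
Log2 fold change in the OE arm against that in the KD arm for the repeat names of both tables, members coloured by family, with circles for internal regions and triangles for LTRs. ETn and several ERVB names lie at upper left, IAPEy-int at the bottom, and grey points to the right show the KD median of 0.26.

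Known regulators of these retroviruses were read from the gene tables, as a list of 50 symbols of which 49 were measured in each arm. In KD Zscan4, 22 fell and 5 rose, with a median of -0.16, where 18.5% of all 17938 genes fell and 17.2% rose. In OE Zscan4, 27 rose and 2 fell, with a median of 0.29, where 22.3% of all 18292 genes rose and 22.1% fell. Trim28, the corepressor that KRAB zinc finger proteins recruit, was at -0.21 in the KD arm (SE 0.052, limma adjusted p = 0.0076), a call lost without either KD control library (0.0966 and 0.196), and rose by 0.80 in the OE arm (SE 0.075, adjusted p = 2.1e-07). Setdb1, which methylates histone H3 at these elements, was at -0.012 (adjusted p = 0.893) and rose by 0.46 in OE Zscan4 (adjusted p = 3.8e-05). Of the 13 corepressor and H3K9 methylation genes, 8 fell in KD Zscan4 and 5 rose in OE Zscan4.

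DNA methylation genes fell in 5 of 6 cases in KD Zscan4 (18.5% of all genes fell) and rose in 3 of 6 in OE Zscan4 (22.3% of all genes rose). Dnmt1, the maintenance methyltransferase, was at -0.54 in the KD arm (SE 0.052, adjusted p = 1.0e-05) and 0.0079 in the OE arm (adjusted p = 0.935). Uhrf1, its targeting partner, was at -0.32 (adjusted p = 4.9e-04) and 0.090 (adjusted p = 0.311, and 0.15 with 0.0441 without OE control replicate 1). The de novo methyltransferase Dnmt3b fell by 1.36 on the log2 scale in KD Zscan4, and its cofactor Dnmt3l by 0.71. Other large KD falls were those of Mov10 (-1.03), an RNA helicase that restricts retroelements, Atf7ip (-0.62), a partner of SETDB1, Tet2 (-0.56), a 5-methylcytosine oxidase, and Zfp57 (-0.51), a KRAB zinc finger protein of imprinted loci.

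The largest rises in OE Zscan4 were those of Smarcad1 (1.31), a chromatin remodeller, Dnmt3a (1.14), Zfp819 (1.06), a KRAB zinc finger protein, Tet2 (1.02), Zfp57 (0.98) and Asf1a (0.95), a histone chaperone. KRAB zinc finger genes and partners rose in 5 of 7 cases in the OE arm, and 1 of 7 fell in the KD arm. For this set and the next ones, 18.5% of all genes fell and 17.2% rose in the KD arm. In the OE arm 22.3% rose and 22.1% fell. The HUSH complex genes, which silence young retroelements, had 1 of 4 lower in the KD arm and 1 of 4 higher in the OE arm, near those shares. Histone H3 variants and chaperones were mixed, with 3 rising and 3 falling of 7 in the KD arm, and 5 rising and 2 falling in the OE arm. Among the rises in the KD arm was H3f3a (0.47), which lies on chromosome 1. Among the falls in the OE arm was H3f3b (-0.24), which lies on chromosome 11, where the OE gene median was -0.33. Both demethylation genes fell in KD Zscan4 and both rose in OE Zscan4. A relation between the regulators and the 3 ETn and 4 ERVB names that fell in KD Zscan4 was not tested.

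**Figure D5:**
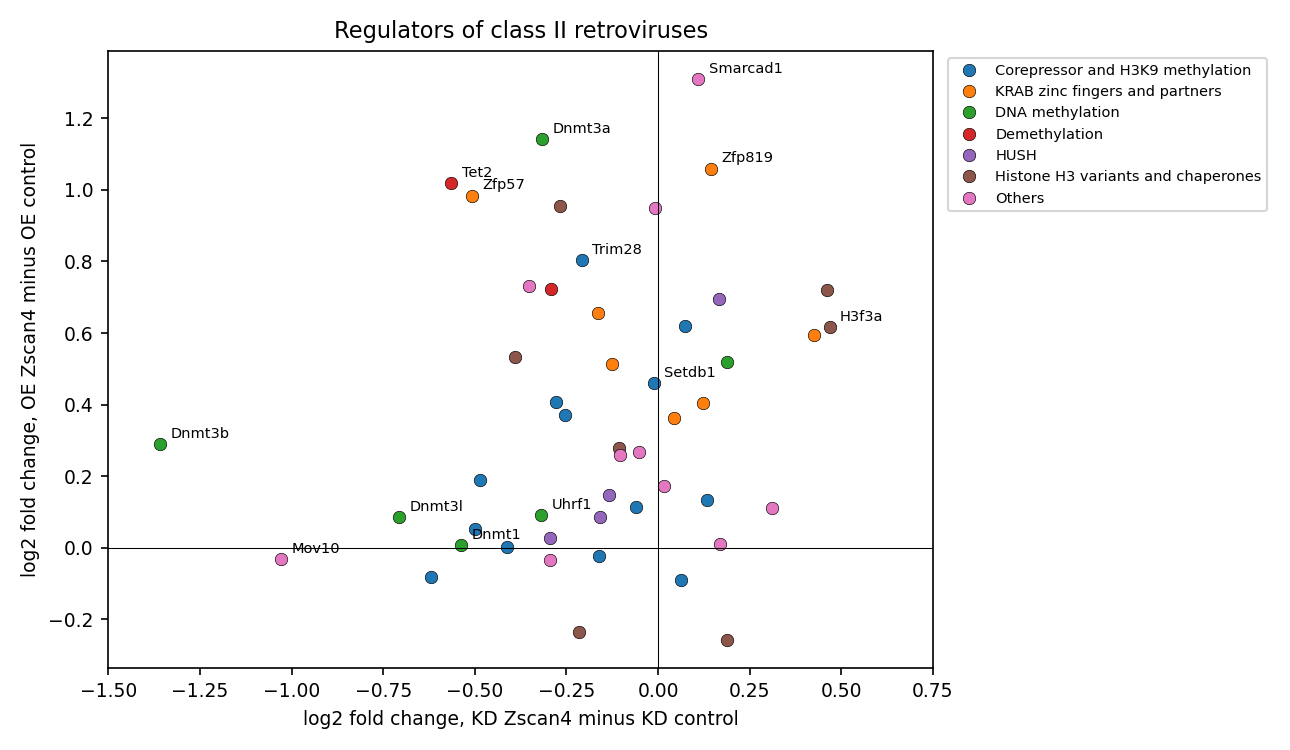
Log2 fold change in the OE arm against that in the KD arm for the 49 measured regulator genes, coloured by set. More points lie left of 0 than right of it on the KD axis, and most lie above 0 on the OE axis, with Dnmt3b lowest in the KD arm (-1.36) and Smarcad1 highest in the OE arm (1.31).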

How the data were processed

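The submitters' processing notes name cutadapt, HISAT2, featureCounts, DESeq2 and the mm10 build, with no roles stated. Versions, strand setting, and treatment of multi-mapped reads are not given in the sources used here. For both arms the authors deposited signal values normalised per library, by gene and by repeat name (4 tables). In the gene tables these are whole reads divided by 1 factor per library (within 0.01 of a whole number for 100% of values), and a value of 0.896 to 1.12 stands for 1 read. Repeat values also lay within 0.01 of a whole multiple of 1 step per library (100% of values). No claim of whole reads is made for the repeat tables, since in 1 library of each arm no name held a single read.

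Columns were matched to samples by the replicate number in the titles. The plan named edgeR for raw counts. For these values limma-trend (limma 3.58.1, R 4.3.3) on log2(value + 1) was used, 2 against 2 libraries, two-sided, with Benjamini-Hochberg adjustment over each table at 0.05. The difference between effects was 1 fit over 8 libraries. On genes, edgeR 4.0.16 and DESeq2 1.42.0 were alternatives, on recovered reads. The fit was tested on simulated data. Libraries of a group differed by more than counting noise (chi-square per degree of freedom 1.41 to 5.35), so none was treated as a library deposited again. That does not show that they are biological replicates.

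The members and lists were chosen with earlier results of these data known. Named with values were members called in an arm or in the difference, the 3 highest internal and LTR names per family, the 3 largest rises and falls per arm with a mean of at least 20, Trim28, Setdb1, Dnmt1, Uhrf1, up to 6 more called regulators per arm, MERVL-int and MT2_Mm. MMERVK10D3_I-int, IAPEY5_LTR, H3f3a and H3f3b were added after their values were seen.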

Additional observations from a re-analysis of the deposited data

Results flagged for a closer look

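For 9 members the effect in the overexpression arm differed from that in the knockdown arm by limma's test of the difference itself. On the log2 scale, OE effect minus KD effect, the differences were 1.44 for MMETn-int, 1.36 for ETnERV-int, 1.61 for RLTRETN_Mm, 1.61 for ERVB4_1C-LTR_Mm and 1.32 for ERVB7_1-LTR_MM. They were 5.47 for ERVB4_2-LTR_MM, 1.77 for ERVB4_2-I_MM-int and 2.28 for IAPLTR3-int. In limma without a trend the differences of MMETn-int, ETnERV-int, ERVB7_1-LTR_MM, ERVB4_2-I_MM-int and IAPLTR3-int did not pass (adjusted p = 0.0537 to 0.145). IAPEy-int was the only one of the 9 with a negative difference, at -3.27. Groups of 2 libraries are too small for a search for single libraries that stand apart.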

How the results depend on the processing

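Counts of calls depended on the settings. Repeat names called in the KD arm numbered 68, with 33 under TMM and 39 under median-of-ratios factors over repeat names, 40 with the replicate block and 0 with limma without a trend (140 names and 13 members at an unadjusted p under 0.05). Of KD calls, 67.6% were rises with the deposited factors, 9.09% with TMM and 7.69% with median of ratios. OE names called numbered 32, with 104 under TMM, 100 under median of ratios and 10 without a trend, and names called for the difference 59, with 87 under TMM, 91 under median of ratios and 19 without a trend. Of the difference calls, 45.8%, 73.6% and 70.3% were higher under deposited factors, TMM and median of ratios, and 63.2% without a trend. KD members called higher were 0 under TMM, median of ratios and no trend and 2 with pseudocount 5 or a mean of at least 10. KD members called lower were 0 without a trend. OE members called higher and lower were 9 and 5 under TMM and median of ratios, with 2 higher without a trend and 1 higher with the replicate block. Difference members called lower were 2 with either other pseudocount, the mean filter, TMM or median of ratios, and those called higher 3 without a trend.

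Leaving out 1 library gave 12 to 166 KD names, 8 to 189 OE names and 36 to 162 for the difference. The KD members called were 0 to 2 higher and 3 to 10 lower, the OE members 1 to 11 higher and 2 to 7 lower, and the difference members 6 to 10 higher and 1 to 3 lower. KD genes called were 4416 to 6087 and OE genes 5964 to 7975, and regulators 3 to 8 higher and 15 to 26 lower (KD), and 22 to 29 higher and 0 to 2 lower (OE). With 1 library left, its group is assumed to vary like the other group. The internal to LTR ratio differences ranged from 0.54 to 0.81 (KD ERVB), 0.39 to 0.42 (KD ETn), 0.024 to 0.15 (KD IAP), -0.72 to 1.03 (KD MMERVK), -0.59 to -0.26 (OE ERVB), 0.11 to 0.31 (OE ETn), -0.23 to -0.10 (OE IAP) and -0.72 to 0.0046 (OE MMERVK).

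Signs turned in the KD arm under TMM and median of ratios for ERVB7_2-LTR_MM (-0.094 and -0.099), IAPEz-int (-0.0035 and -0.0079), IAP-d-int (-0.053 and -0.058), IAPLTR1_Mm (-0.072 and -0.076), IAPLTR2_Mm (-0.082 and -0.086), IAPLTR2b (-0.16 and -0.16), MMERVK9E_I-int (-0.026 and -0.031) and IAPEy-int (-0.15 and -0.15). With 1 library left out, signs also turned for KD ETnERV2-int (-0.14 to 0.085), MMERVK10D3_LTR (-0.76 to 0.58), ERVB4_1B-I_MM-int (-0.57 to 0.46), IAPEy-int (-0.19 to 0.36), IAP-d-int (-0.084 to 0.48) and IAPLTR2b (-0.35 to 0.54). In the OE arm they turned for ERVB7_2-LTR_MM (-0.065 to 0.20), IAPEY4_I-int (-0.16 to 0.34), ERVB2_1A-I_MM-int (-0.87 to 0.15) and IAPLTR2_Mm (-0.37 to 0.27), and among genes for KD Setdb1 (-0.074 to 0.049) and OE Dnmt1 (-0.0026 to 0.018, and -0.0072 with edgeR). None of these passed with all libraries and the deposited factors, but ERVB2_1A-I_MM-int in the OE arm passed as a fall without OE control replicate 1 (adjusted p = 0.0222) and IAPEz-int in the KD arm as a rise without either KD Zscan4 library (0.0059 and 0.0242). DESeq2 on genes called 4125 KD genes and 3 KD regulators higher. With medians over names in place of sums, the ratio differences were -0.47 (KD IAP, turned), 0.81 (KD ETn), -0.65 (OE IAP), -0.23 (OE ETn, turned), 0.32 (OE MMERVK, turned) and -0.19 (OE ERVB). Turned sums were -0.062 (TMM) and -0.094 (median) for KD IAP internal, -0.15 for KD IAP LTR and -0.21 for KD MMERVK internal (TMM), and, by median, 0.15 for KD ERVB LTR, 0.051 for OE IAP LTR and 0.26 for OE MMERVK internal. For turned signs and lost calls the cause was not tested.

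No shift shared by same-numbered libraries was seen: deviations of same-numbered repeat libraries correlated at -0.0983 (KD) and -0.0285 (OE). With 2 libraries per group this cannot show whether they were prepared as pairs. With the replicate block 40 KD, 26 OE and 58 difference names were called, and KD IAPEY4_LTR and OE ERVB4_1C-LTR_Mm, ERVB7_1-LTR_MM and MMERVK9E_I-int lost their calls. Count tests and limma-voom on repeat names were not run, because whole reads were not claimed for the repeat tables, in which 1 library of each arm held no name with a single read. Depth limits names under 20 reads.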
